A study of Mus musculus with 18 samples.

Results

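The 35 genes described here are genes of the keratinocyte, the main cell of the epidermis, followed through tumors of B16F10, a mouse melanoma line. They were chosen by name, as rows of a table of 50600 genes, and all 35 had a row. They were sorted by their usual place in the skin into 7 basal genes, 11 suprabasal genes, 6 cornified genes, 7 wound-induced genes and 4 genes of cell junctions and stress. Keratinocyte genes are no markers of the melanocyte lineage from which B16F10 comes.

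The tumors were grown under the skin of the right flank of C57BL/6 mice from injected B16F10 cells. Each was injected with PBS, with unloaded EVs (extracellular vesicles of HEK293 cells that overexpress PTGFRN), with exoCDN2 (0.1 µg, the same vesicles loaded with CDN2) or with free CDN2 (20 µg or 100 µg). CDN2, named CL656 in the labels, is a cyclic dinucleotide that activates STING, a sensor that induces interferons. Tumors were taken 24 h after 1 dose, or 24 h after a second dose given 3 days after the first. Unloaded EVs and CDN2 (100 µg) had 1 dose, while PBS, exoCDN2 and CDN2 (20 µg) had both schedules. Each group held 2 tumors, and 2 further tumors with 2 doses of CDN2 carried no amount on their labels and were set against PBS only in a separate fit. RNA came from whole tumors, so the number of keratinocytes, the RNA per keratinocyte and expression by other cells cannot be told apart in what follows.

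Stratified epidermis renews itself from a basal layer that expresses the keratin pair Krt5 and Krt14. Cells that leave this layer switch to Krt1 and Krt10, and finally build a cornified envelope from proteins such as loricrin and involucrin, crosslinked by transglutaminases. A wound or inflammation switches on Krt6a, Krt6b, Krt16 and Krt17 and small proline-rich (Sprr) proteins in the living layers. These genes are grouped here as basal, differentiated or activated, and hair follicle cells were not separated from epidermis in the RNA.

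Depth was between 21608858 and 65983603 counts per tumor, lowest in CDN2 (20 µg) 2 doses replicate 1. Levels are given as CPM, counts scaled to a fixed library size after TMM normalization, and 3 counts or fewer were taken as the floor of detection. The melanocyte lineage genes summed to between 7742 and 26770 CPM, lowest in the same tumor, which is the tumor also highest in skeletal muscle genes (4654 CPM).

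**Figure D1:**
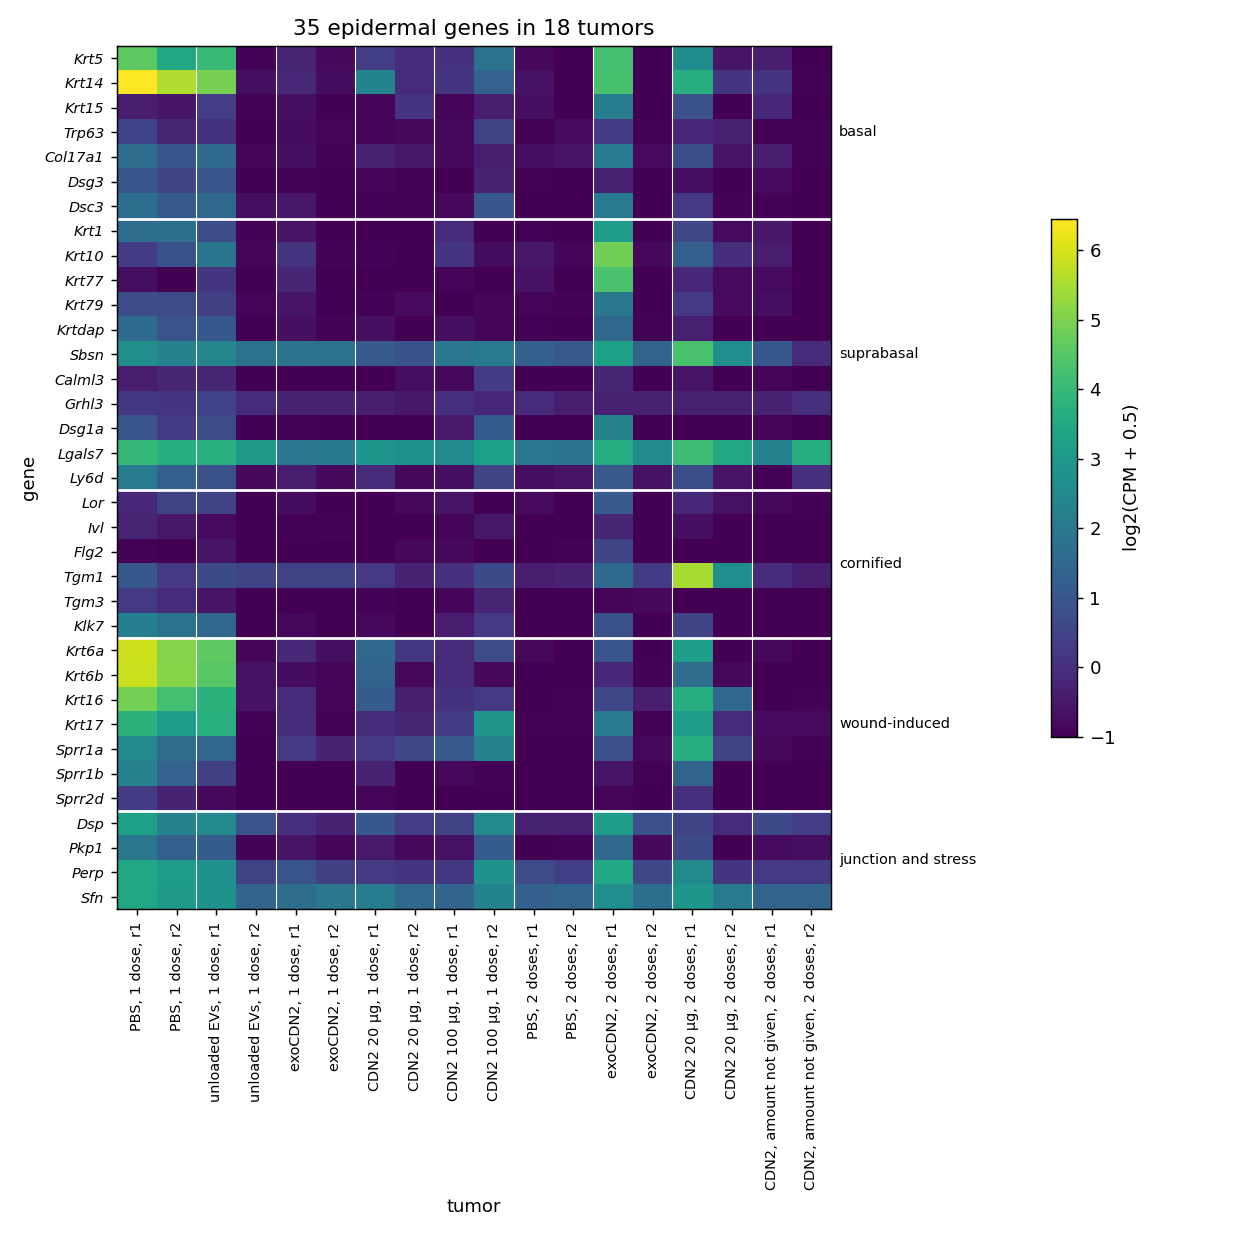
Level of the 35 genes (rows, by group) in the 18 tumors (columns, r1 and r2 for the replicates), as log2(CPM + 0.5). Both PBS tumors after 1 dose and 1 tumor each of unloaded EVs, exoCDN2 2 doses and CDN2 (20 µg) 2 doses stood out across many rows.

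The genes differed widely in level between tumors, also within groups. Summed over the 35 genes, the level was 363 and 215 CPM in the PBS tumors after 1 dose, 182 and 17.1 with unloaded EVs, 17.7 and 13.1 with exoCDN2, 30.4 and 16.4 with CDN2 (20 µg) and 21.1 and 58.6 with CDN2 (100 µg). After 2 doses it was 10.5 and 9.08 CPM with PBS, 181 and 14.5 with exoCDN2, 170 and 33.2 with CDN2 (20 µg) and 13.3 and 17.6 in the tumors with no stated amount. Within the groups of unloaded EVs, exoCDN2 2 doses and CDN2 (20 µg) 2 doses, 1 tumor was far above the other, whereas both PBS tumors were high after 1 dose and low after 2. The highest tumor was PBS 1 dose replicate 1 for 18 genes, exoCDN2 2 doses replicate 1 for 11, CDN2 (20 µg) 2 doses replicate 1 for 4 and another tumor for 2. At least 1 CPM was reached by 24 of the 35 genes in PBS 1 dose replicate 1 and exoCDN2 2 doses replicate 1, and by 3 genes in PBS 2 doses replicate 2.

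Among the basal genes, Krt14, the type I keratin of the basal layer (ENSMUSG00000045545, GRCm38, chr11:100203162-100207548, minus strand), was the most abundant member per length in PBS 1 dose replicate 1, at 49.6 CPM per kilobase of exon. Its level was 87.2 and 47.2 CPM in the PBS tumors after 1 dose, 30.2 and 0.1 with unloaded EVs, 0.396 and 0.092 with exoCDN2, 4.65 and 0.443 with CDN2 (20 µg) and 0.61 and 2.05 with CDN2 (100 µg). After 2 doses it was 0.143 and 0 CPM with PBS, 18.9 and 0 with exoCDN2, 12.2 and 0.585 with CDN2 (20 µg) and 0.621 and 0.027 in the tumors with no stated amount. The values ran over more than 3 orders of magnitude, and each PBS tumor after 1 dose was above every other tumor. Krt5, its type II partner, followed the same tumors. It was at 23.9 and 10.3 CPM in the PBS tumors after 1 dose, 15.8 and 0.025 with unloaded EVs, 0.376 and 0.069 with exoCDN2, 0.792 and 0.47 with CDN2 (20 µg) and 0.537 and 3.04 with CDN2 (100 µg). The second dose gave 0.061 and 0 CPM with PBS, 18.6 and 0 with exoCDN2, 5.68 and 0.159 with CDN2 (20 µg) and 0.278 and 0 in the tumors with no stated amount. In exoCDN2 2 doses replicate 1, Krt5 came to 0.985 times the CPM of Krt14, and in CDN2 (100 µg) replicate 2 to 1.48 times, against 0.521 times in unloaded EVs replicate 1 and 0.274 and 0.219 times in the PBS tumors after 1 dose.

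Trp63, the transcription factor that maintains basal keratinocytes, was low throughout, with no tumor reaching 1 CPM. It was at 0.918 and 0.356 CPM in the PBS tumors after 1 dose, 0.562 and 0 with unloaded EVs, 0.099 and 0.046 with exoCDN2, 0.05 and 0.055 with CDN2 (20 µg) and 0.073 and 0.89 with CDN2 (100 µg). After 2 doses Trp63 was at 0.02 and 0.088 CPM with PBS, 0.759 and 0.014 with exoCDN2, 0.394 and 0.292 with CDN2 (20 µg) and 0.021 and 0.027 in the tumors with no stated amount. The same tumors led, apart from CDN2 (100 µg) replicate 2, which came second. Col17a1, a hemidesmosome collagen, was at 2.65 and 1.43 CPM in the PBS tumors after 1 dose, 2.44 and 0.05 with unloaded EVs, 0.119 and 0.023 with exoCDN2, 0.297 and 0.194 with CDN2 (20 µg) and 0.073 and 0.272 with CDN2 (100 µg). With 2 doses it was at 0.102 and 0.153 CPM with PBS, 3.78 and 0.084 with exoCDN2, 1.24 and 0.159 with CDN2 (20 µg) and 0.257 and 0.027 in the tumors with no stated amount. Its highest value was in exoCDN2 2 doses replicate 1, as were those of Krt15, a keratin of basal and hair bulge cells (3.99 CPM), and Dsc3, a desmosomal cadherin (3.76 CPM). Dsg3, another desmosomal cadherin of the basal layer, was highest in PBS 1 dose replicate 1 (1.46 CPM) and at or under 3 counts in 12 tumors.

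Among the suprabasal genes, Krt10, the type I keratin of differentiating cells (ENSMUSG00000019761, chr11:99385254-99389364, minus strand), had another order of tumors. It was at 0.721 and 1.33 CPM in the PBS tumors after 1 dose, 3.22 and 0.05 with unloaded EVs, 0.594 and 0.023 with exoCDN2, 0.025 and 0 with CDN2 (20 µg) and 0.61 and 0.099 with CDN2 (100 µg). After 2 doses Krt10 was at 0.204 and 0.044 CPM with PBS, 28.3 and 0.056 with exoCDN2, 1.91 and 0.478 with CDN2 (20 µg) and 0.257 and 0 in the tumors with no stated amount. The top value lay in exoCDN2 2 doses replicate 1, and its partner tumor in the same group was near the floor. Krt1, the type II partner of Krt10, was at 2.65 and 2.83 CPM in the PBS tumors after 1 dose, 1.21 and 0.025 with unloaded EVs, 0.158 and 0 with exoCDN2, 0 and 0 with CDN2 (20 µg) and 0.439 and 0 with CDN2 (100 µg). After the second dose it was at 0.02 and 0 CPM with PBS, 8.22 and 0 with exoCDN2, 1.01 and 0.08 with CDN2 (20 µg) and 0.193 and 0 in the tumors with no stated amount. Krt1 was highest in the same tumor, and at 0 counts in 7 tumors. Krt77, a type II keratin of differentiated skin, reached 19.6 CPM there and 1 CPM in no other tumor, and Krt79, a keratin of the upper hair follicle and sebaceous duct, reached 3.39 CPM.

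Krtdap, a secreted protein of differentiating keratinocytes, was at 2.51 and 1.36 CPM in the PBS tumors after 1 dose, 1.58 and 0 with unloaded EVs, 0.119 and 0.023 with exoCDN2, 0.124 and 0 with CDN2 (20 µg) and 0.122 and 0.049 with CDN2 (100 µg). After 2 doses it came to 0.02 and 0 CPM with PBS, 2.36 and 0.014 with exoCDN2, 0.281 and 0 with CDN2 (20 µg) and 0 and 0 in the tumors with no stated amount. It was highest in PBS 1 dose replicate 1, closely followed by exoCDN2 2 doses replicate 1. Dsg1a, a desmosomal cadherin of the upper layers, was highest in exoCDN2 2 doses replicate 1 (4.52 CPM) and had 0 counts in 10 tumors. Of its 150-base windows, 18.1% are shared with Dsg1b or Dsg1c, so the split of reads between these genes is uncertain. Calml3, a calmodulin-like protein, reached 0.717 CPM in CDN2 (100 µg) replicate 2 and was at or under 3 counts in 12 tumors. Ly6d, a surface protein of stratified epithelium, was highest in PBS 1 dose replicate 1 (3.76 CPM).

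A few members did not follow the keratins down to the floor. Lgals7, which encodes galectin-7, was at 15.1 and 12.2 CPM in the PBS tumors after 1 dose, 12.7 and 7.49 with unloaded EVs, 3.33 and 3.54 with exoCDN2, 7 and 6.25 with CDN2 (20 µg) and 5.29 and 8.71 with CDN2 (100 µg). Lgals7 after 2 doses was at 3.31 and 3.15 CPM with PBS, 11.8 and 5.59 with exoCDN2, 17.1 and 10.6 with CDN2 (20 µg) and 4.3 and 11.8 in the tumors with no stated amount. All 18 tumors were above 3 CPM, including those in which Krt14 had 0 counts. Sbsn, which encodes suprabasin, was at 5.95 and 4.47 CPM in the PBS tumors after 1 dose, 4.71 and 2.92 with unloaded EVs, 3.13 and 2.94 with exoCDN2, 1.71 and 1.36 with CDN2 (20 µg) and 3.32 and 3.78 with CDN2 (100 µg). After 2 doses Sbsn was at 1.98 and 1.6 CPM with PBS, 8.99 and 2.1 with exoCDN2, 19.4 and 5.74 with CDN2 (20 µg) and 1.56 and 0.453 in the tumors with no stated amount. It passed 1 CPM in 17 tumors, and it shares 3.30% of its 150-base windows with a transcript of Tmem147os. Grhl3, a transcription factor of barrier formation, stayed between 0.194 and 0.907 CPM in all 18 tumors.

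Of the cornified genes, Lor, which encodes loricrin (ENSMUSG00000043165, chr3:92080271-92083142, minus strand), was at 0.415 and 0.871 CPM in the PBS tumors after 1 dose, 0.95 and 0 with unloaded EVs, 0.099 and 0 with exoCDN2, 0 and 0.055 with CDN2 (20 µg) and 0.171 and 0 with CDN2 (100 µg). With the second dose it was at 0.082 and 0 CPM with PBS, 1.69 and 0 with exoCDN2, 0.394 and 0.133 with CDN2 (20 µg) and 0.064 and 0.027 in the tumors with no stated amount. It passed 1 CPM in a single tumor, exoCDN2 2 doses replicate 1. Ivl, which encodes involucrin, was at 0.35 and 0.198 CPM in the PBS tumors after 1 dose, 0.086 and 0 with unloaded EVs, 0.02 and 0.023 with exoCDN2, 0 and 0 with CDN2 (20 µg) and 0.049 and 0.198 with CDN2 (100 µg). Ivl after 2 doses stood at 0 and 0 CPM with PBS, 0.37 and 0 with exoCDN2, 0.113 and 0 with CDN2 (20 µg) and 0 and 0 in the tumors with no stated amount. Ivl was near the floor wherever it was detected, with 13 tumors at or under 3 counts. Flg2, a filaggrin-like protein of the granular layer, was highest in exoCDN2 2 doses replicate 1 (0.973 CPM), was at 0 counts in 12 tumors and was the member that did not pass the filter on low counts.

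Tgm3, a transglutaminase of cornification and of the hair follicle, was at 0.699 and 0.435 CPM in the PBS tumors after 1 dose, 0.151 and 0 with unloaded EVs, 0 and 0 with exoCDN2, 0.025 and 0 with CDN2 (20 µg) and 0.049 and 0.371 with CDN2 (100 µg). After 2 doses it gave 0 and 0 CPM with PBS, 0.039 and 0.056 with exoCDN2, 0 and 0 with CDN2 (20 µg) and 0 and 0 in the tumors with no stated amount. Here PBS 1 dose was highest, and exoCDN2 2 doses replicate 1 was at the floor. Klk7, a protease that sheds the outermost cells, was at 4.17 and 2.97 CPM in the PBS tumors after 1 dose, 2.25 and 0 with unloaded EVs, 0.059 and 0 with exoCDN2, 0.074 and 0 with CDN2 (20 µg) and 0.244 and 0.668 with CDN2 (100 µg). After 2 doses Klk7 was at 0 and 0 CPM with PBS, 1.28 and 0 with exoCDN2, 0.957 and 0 with CDN2 (20 µg) and 0 and 0 in the tumors with no stated amount. Its 5 highest tumors came in the same order as those of Krt14. Tgm1, the transglutaminase that crosslinks the envelope in living layers, went against both patterns. Its level was 1.57 and 0.673 CPM in the PBS tumors after 1 dose, 1.1 and 0.949 with unloaded EVs, 0.891 and 0.851 with exoCDN2, 0.668 and 0.332 with CDN2 (20 µg) and 0.512 and 1.09 with CDN2 (100 µg). Tgm1 after 2 doses stood at 0.245 and 0.306 CPM with PBS, 2.45 and 0.718 with exoCDN2, 44 and 5.79 with CDN2 (20 µg) and 0.471 and 0.266 in the tumors with no stated amount. Both CDN2 (20 µg) tumors with 2 doses were above every other tumor, although Krt14 in replicate 2 of them was only 0.585 CPM.

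Of the wound-induced genes, Krt6a (ENSMUSG00000058354, chr15:101689910-101694307, minus strand) was at 58.8 and 33 CPM in the PBS tumors after 1 dose, 24 and 0.05 with unloaded EVs, 0.396 and 0.115 with exoCDN2, 2.3 and 0.664 with CDN2 (20 µg) and 0.439 and 1.16 with CDN2 (100 µg). After 2 doses Krt6a was at 0.061 and 0 CPM with PBS, 1.4 and 0 with exoCDN2, 8.33 and 0 with CDN2 (20 µg) and 0.064 and 0 in the tumors with no stated amount. Krt6b, its close copy, was at 57.3 and 33.9 CPM in the PBS tumors after 1 dose, 22.5 and 0.125 with unloaded EVs, 0.099 and 0.046 with exoCDN2, 2.15 and 0.055 with CDN2 (20 µg) and 0.464 and 0.074 with CDN2 (100 µg). After 2 doses Krt6b was at 0 and 0 CPM with PBS, 0.389 and 0.028 with exoCDN2, 2.65 and 0.053 with CDN2 (20 µg) and 0 and 0 in the tumors with no stated amount. Both were highest in PBS 1 dose and low in exoCDN2 2 doses replicate 1, where Krt14 was high. Of the 150-base windows of their transcripts, 26.7% for Krt6a and 18.8% for Krt6b occur unchanged in another gene, mainly each other, so the split of reads between them is uncertain. The ratio of Krt6b to Krt6a was between 0.935 and 1.03 in the PBS and unloaded EV tumors with high keratins, and 0.935 in CDN2 (20 µg) 1 dose replicate 1. It was 0.318 in CDN2 (20 µg) 2 doses replicate 1, 0.278 in exoCDN2 2 doses replicate 1 and 0.064 in CDN2 (100 µg) replicate 2.

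Krt16 (ENSMUSG00000053797, chr11:100246091-100248902, minus strand), their type I partner, was at 29.2 and 18.3 CPM in the PBS tumors after 1 dose, 13.4 and 0.15 with unloaded EVs, 0.436 and 0.046 with exoCDN2, 1.73 and 0.277 with CDN2 (20 µg) and 0.561 and 0.668 with CDN2 (100 µg). After 2 doses Krt16 stood at 0 and 0.022 CPM with PBS, 0.993 and 0.268 with exoCDN2, 12 and 2.26 with CDN2 (20 µg) and 0 and 0.027 in the tumors with no stated amount. Among tumors with 2 doses, both CDN2 (20 µg) tumors were the highest. It shares 18.4% of its windows with Gm11597. Krt17, a keratin of hair follicle and activated epidermis, was at 13.3 and 8.15 CPM in the PBS tumors after 1 dose, 12.9 and 0.025 with unloaded EVs, 0.475 and 0.023 with exoCDN2, 0.47 and 0.36 with CDN2 (20 µg) and 0.756 and 6.95 with CDN2 (100 µg). After 2 doses Krt17 was at 0.02 and 0.022 CPM with PBS, 3.66 and 0.014 with exoCDN2, 8.1 and 0.452 with CDN2 (20 µg) and 0.086 and 0.08 in the tumors with no stated amount. In CDN2 (100 µg) replicate 2 it was 3.39 times the CPM of Krt14, against 0.153 times in PBS 1 dose replicate 1.

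The small proline-rich genes form part of the epidermal differentiation complex, which held 6 members between chr3:92080271 and chr3:93221391. Sprr1a was at 5.18 and 2.67 CPM in the PBS tumors after 1 dose, 2.27 and 0 with unloaded EVs, 0.673 and 0.322 with exoCDN2, 0.668 and 1.02 with CDN2 (20 µg) and 1.64 and 4.48 with CDN2 (100 µg). After 2 doses Sprr1a was at 0 and 0 CPM with PBS, 1.26 and 0.056 with exoCDN2, 12.3 and 0.957 with CDN2 (20 µg) and 0.064 and 0.027 in the tumors with no stated amount. Its highest tumor was CDN2 (20 µg) 2 doses replicate 1, the only wound-induced member of which this was so. Sprr1b was at 4.33 and 2.04 CPM in the PBS tumors after 1 dose, 0.842 and 0 with unloaded EVs, 0 and 0 with exoCDN2, 0.322 and 0 with CDN2 (20 µg) and 0.073 and 0.025 with CDN2 (100 µg). After 2 doses Sprr1b was at 0 and 0 CPM with PBS, 0.175 and 0.014 with exoCDN2, 2.08 and 0 with CDN2 (20 µg) and 0 and 0 in the tumors with no stated amount. Sprr2d was at 0.765 and 0.317 CPM in the PBS tumors after 1 dose, 0.065 and 0 with unloaded EVs, 0 and 0 with exoCDN2, 0.05 and 0 with CDN2 (20 µg) and 0 and 0 with CDN2 (100 µg). Sprr2d after 2 doses was at 0 and 0 CPM with PBS, 0.039 and 0 with exoCDN2, 0.506 and 0 with CDN2 (20 µg) and 0 and 0 in the tumors with no stated amount. Both were highest in PBS 1 dose replicate 1, and Sprr2d was at or under 3 counts in 15 tumors.

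Of the genes of junctions and stress, Dsp, which encodes desmoplakin, was at 8.87 and 4.39 CPM in the PBS tumors after 1 dose, 5.18 and 1.37 with unloaded EVs, 0.515 and 0.345 with exoCDN2, 1.58 and 0.775 with CDN2 (20 µg) and 0.878 and 5.17 with CDN2 (100 µg). After 2 doses Dsp was at 0.286 and 0.284 CPM with PBS, 8.26 and 1.27 with exoCDN2, 0.957 and 0.452 with CDN2 (20 µg) and 1.05 and 0.772 in the tumors with no stated amount. It was above 3 counts in all tumors. Perp, a desmosome protein induced by p53 family members, was at 10.6 and 8.01 CPM in the PBS tumors after 1 dose, 6.31 and 0.874 with unloaded EVs, 1.41 and 0.828 with exoCDN2, 0.668 and 0.609 with CDN2 (20 µg) and 0.659 and 6.43 with CDN2 (100 µg). After 2 doses Perp was at 1.12 and 0.809 CPM with PBS, 10.5 and 1.01 with exoCDN2, 5.4 and 0.611 with CDN2 (20 µg) and 0.685 and 0.693 in the tumors with no stated amount. Sfn, which encodes 14-3-3 sigma, was at 10.7 and 7.62 CPM in the PBS tumors after 1 dose, 6.44 and 2.2 with unloaded EVs, 2.65 and 3.36 with exoCDN2, 3.98 and 2.27 with CDN2 (20 µg) and 2.2 and 4.67 with CDN2 (100 µg). After 2 doses Sfn was at 1.96 and 2.14 CPM with PBS, 5.86 and 2.75 with exoCDN2, 6.98 and 3.8 with CDN2 (20 µg) and 2.08 and 2.16 in the tumors with no stated amount. Sfn passed 1 CPM in all 18 tumors. Pkp1, which encodes plakophilin 1, was highest in PBS 1 dose replicate 1 (3.39 CPM). All 4 genes of this group had their highest value in that tumor.

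**Figure D2:**
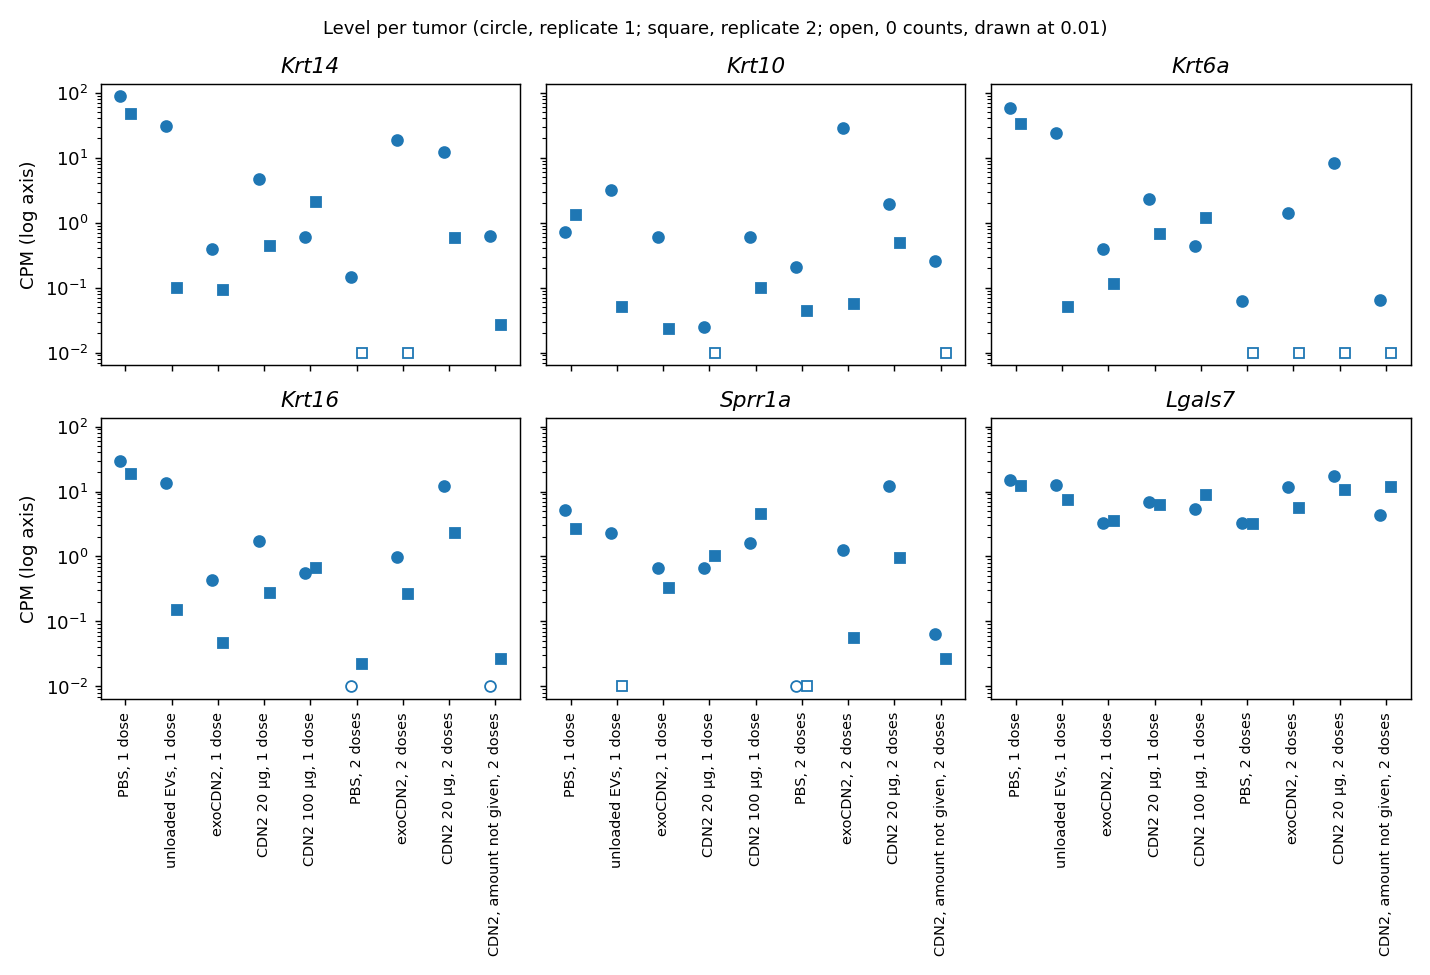
CPM (log axis) of 6 genes in each tumor, by group, with replicate 1 as circles, replicate 2 as squares and 0 counts as open symbols at 0.01. Krt14 was at 30.2 and 0.1 CPM in the 2 unloaded EV tumors, whereas Lgals7 stayed between 3.15 and 17.1 CPM.

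The RefSeq promoter windows of Krt14, Krt10 and Sprr1a are shown as 1 example each of a basal, a suprabasal and a wound-induced gene. Sprr1a differs from the other wound-induced genes in its highest tumor, and no promoter of Krt6a, Krt6b or Krt16 was used here. Each sequence holds the 250 bases before the RefSeq start (GRCm38.p6, minus strand, 5′ to 3′), and capitals mark the AP-1 motif TGANTCA, which reads the same on both strands. The windows are chr11:100206031-100206280, chr11:99389365-99389614 and chr3:92485882-92486131. The Krt14 window lies inside the gene span given above (chr11:100203162-100207548), so the RefSeq start used is downstream of the 5′ end of that span. It is therefore not the region before that 5′ end, and its lack of the motif gives no reading on that region.
Krt14: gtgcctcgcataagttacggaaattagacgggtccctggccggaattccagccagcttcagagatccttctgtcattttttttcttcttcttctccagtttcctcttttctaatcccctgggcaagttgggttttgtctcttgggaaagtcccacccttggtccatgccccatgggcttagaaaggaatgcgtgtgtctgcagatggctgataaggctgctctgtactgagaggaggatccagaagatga
Krt10: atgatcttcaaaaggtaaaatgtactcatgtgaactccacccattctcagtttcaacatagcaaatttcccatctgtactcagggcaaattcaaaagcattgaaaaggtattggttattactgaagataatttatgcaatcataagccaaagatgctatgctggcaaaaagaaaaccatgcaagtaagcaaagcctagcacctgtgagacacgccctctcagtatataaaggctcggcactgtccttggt
Sprr1a: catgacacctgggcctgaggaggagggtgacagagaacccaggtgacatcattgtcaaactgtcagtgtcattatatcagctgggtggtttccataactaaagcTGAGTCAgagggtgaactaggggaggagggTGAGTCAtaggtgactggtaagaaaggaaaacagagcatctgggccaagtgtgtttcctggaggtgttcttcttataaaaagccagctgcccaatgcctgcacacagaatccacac
RefSeq promoters were matched for 21 of the 35 genes. The motif occurred in 8 of these, against 6.87% of 27025 promoters of this length, and the 8 were Lor, Ivl, Flg2, Sprr1a, Sprr1b, Sprr2d, Sbsn and Krtdap. All but Sbsn and Krtdap are the 6 members of the epidermal differentiation complex on chr3. Sbsn (chr7:30751471-30756134) and Krtdap (chr7:30787896-30791097) lie close together. The 8 are thus not independent, and no other matched member promoter held the motif. TATAAA on either strand occurred in 9 of the 21 against 13.0% of all promoters, and GGGCGG on either strand in 5 against 32.9%. An interferon response pattern occurred in 1 of the 21, that of Tgm1, against 3.04%. A short core repeated with 5 bases between its copies occurred in 0 of the 21, against 0.392%. Whether this spacing matches sites of the p53 family was not tested, so the 0 gives no reading on such sites. A match is a description of letters and not of a bound site.

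To compare the make-up of the skin RNA, the 7 tumors with at least 100 counts over the basal genes were used, a limit set after seeing the counts. The share of Krt6a, Krt6b and Krt16 among the counts of these keratins and of Krt5 and Krt14 was 56.7% (exact 95% interval 55.8 to 57.6) in PBS 1 dose replicate 1, and 59.7% (58.5 to 60.8) in replicate 2. It was 56.6% (55.2 to 58.0) in unloaded EVs replicate 1, 53.2% (48.6 to 57.8) in CDN2 (20 µg) 1 dose replicate 1 and 56.2% (52.5 to 59.8) in CDN2 (20 µg) 2 doses replicate 1. It was 27.2% (22.1 to 32.8) in CDN2 (100 µg) replicate 2 and 6.93% (5.87 to 8.11) in exoCDN2 2 doses replicate 1. The share thus lay between 53.2% and 59.7% in 5 tumors of 4 groups, and the intervals of the other 2 tumors lay below all of theirs. Tumors under the limit did not all follow their partners. ExoCDN2 2 doses replicate 2 had 21 counts of the wound keratins and 0 of Krt5 and Krt14, and CDN2 (20 µg) 2 doses replicate 2 had 87 and 28, a share of 75.7% (66.8 to 83.2). CDN2 (100 µg) replicate 1 had 60 and 47, a share of 56.07% (46.15 to 65.66), so the low share of replicate 2 was not seen in both tumors of that group.

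Among the 7 tumors, the share of Krt1 and Krt10 among these keratins and Krt5 and Krt14 was highest in the tumor with the lowest share of wound keratins. It was 49.4% (47.8 to 51.0) in exoCDN2 2 doses replicate 1 and 14.05% (10.7 to 18.02) in CDN2 (20 µg) 2 doses replicate 1. The PBS tumors after 1 dose had 2.94% (2.5 to 3.435) and 6.73% (5.88 to 7.67), and unloaded EVs replicate 1 had 8.79% (7.67 to 10.01). In CDN2 (20 µg) 1 dose replicate 1 it was 0.4525% (0.01146 to 2.495), and in CDN2 (100 µg) replicate 2 it was 1.905% (0.521 to 4.805). Under the limit the share ran from 0% to 100% on few counts. It was 49.35% (37.76 to 61.0) in exoCDN2 1 dose replicate 1 and 47.78% (37.13 to 58.57) in CDN2 (100 µg) replicate 1. The share of wound keratins in these tumors was 54.65% and 56.07%, so a high share of Krt1 and Krt10 did not always go with few wound keratins. The intervals cover counting error only, and with 1 tumor a group over the limit in most cases no group could be tested for its make-up.

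**Figure D3:**
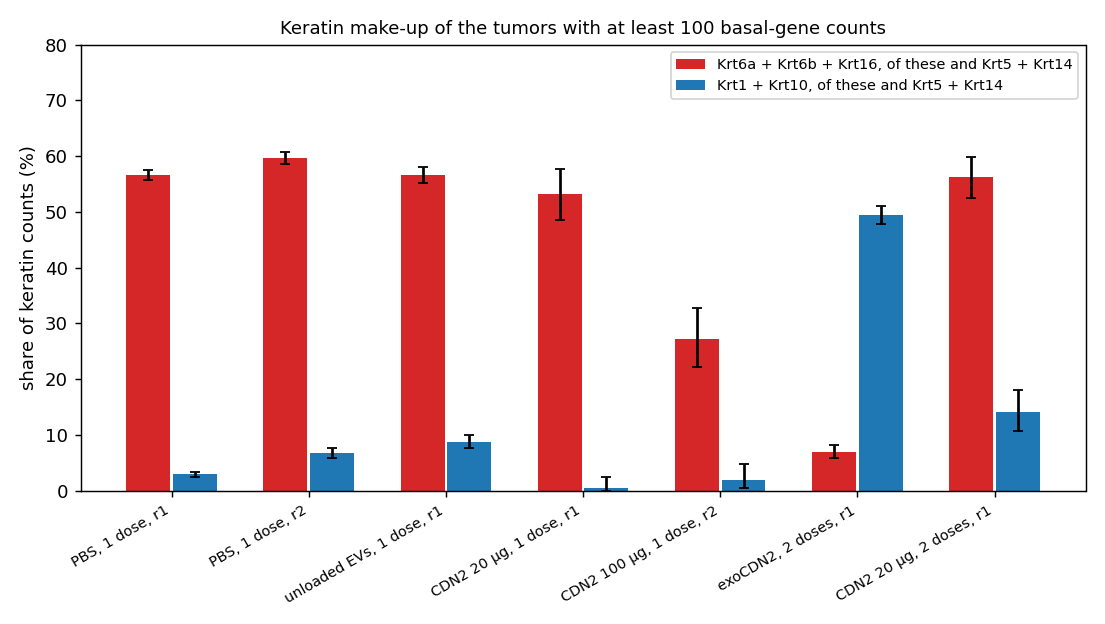
Share (%) of wound-induced keratins (red) and of Krt1 and Krt10 (blue), each among its own counts plus those of Krt5 and Krt14, in the 7 tumors with at least 100 basal-gene counts. Bars are single tumors with exact 95% binomial intervals, and exoCDN2 2 doses replicate 1 is the tumor with 6.93% wound keratins and 49.4% Krt1 and Krt10.

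CDN2 (100 µg) replicate 2 also carried genes of the hair follicle. The 6 inner root sheath genes Krt25, Krt27, Krt28, Krt71, Krt73 and Tchh summed to 157.7 CPM there and 11.5 CPM in replicate 1, and to at most 0.173 CPM in every other tumor. Krt17 (3.39 times the CPM of Krt14), Sprr1a (2.18 times), Krt5 (1.48 times) and Trp63 were high in CDN2 (100 µg) replicate 2 relative to Krt14. Dsp (5.17 CPM) and Perp (6.43 CPM) were above Krt14 (2.05 CPM) there as well, whereas Krt6b (0.036 times) and Krt1 (0 times) were low. In CDN2 (20 µg) 2 doses replicate 1, the neutrophil genes summed to 963 CPM and the simple epithelium genes to 45.6 CPM, the highest of all tumors. The part of these other cells in the member levels was not tested.

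Differences between groups were tested with edgeR's quasi-likelihood test over 16927 genes, 34 of them members, and a gene was called at a Benjamini-Hochberg adjusted p under 0.05 and a change over 2-fold. With 1 dose, unloaded EVs against PBS gave 0 called members and 0% of all genes. At an unadjusted p under 0.05 there were 2 members, and DESeq2 called 0. Krt14 was at -2.15 ± 1.94 (log2 change, SE, n = 2 tumors a group, edgeR adjusted p = 1), and the fitted value of 30 members was below PBS.

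After 1 dose of exoCDN2, 1 member was called, against 2.62% of all genes. Lgals7 fell by 1.99 ± 0.388 (log2, SE, edgeR adjusted p = 0.014), with both tumors below both PBS tumors, and this call was lost when any of the 4 tumors was left out. The median log2 change of the 34 members was -4.50, beside -0.0237 over all genes tested, and 32 of 34 did not overlap with PBS, against 68.1% of all genes. Krt14 was at -8.05 ± 2.72 (edgeR adjusted p = 0.16) and Krt16 at -6.56 ± 1.68 (edgeR adjusted p = 0.058), which did not pass the test.

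CDN2 (20 µg) gave 0 called members after 1 dose by edgeR, against 3.14% of all genes, with 19 members at an unadjusted p under 0.05 and 1 called by DESeq2. The median member was at -4.36 on the log2 scale, and Lgals7 at -1.04 ± 0.377 (edgeR adjusted p = 0.18). CDN2 (100 µg) gave 0 as well, against 2.44%, with 10 members at an unadjusted p under 0.05 and 2 called by DESeq2. Its median was -1.48, while the hair genes Krt25, Krt27, Krt71 and Tchh rose, Tchh by 9.09 and Krt71 by 9.80 (log2), the 4 called of 7 tested from a list of 12. Between exoCDN2 and CDN2 (20 µg) after 1 dose, 0 members were called against 0.608% of all genes, with 1 at an unadjusted p under 0.05 and 1 by DESeq2.

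The PBS tumors themselves differed between the schedules. For PBS after 2 doses against 1 dose, 33 of 34 members did not overlap, against 45.1% of all genes, and all but 1 had a lower fitted value, with a median of -6.72 (log2). Over both tumors of a group, Krt6b had 4334 counts after 1 dose and 0 after 2, which makes it at least 1430-fold lower against a floor of 3 counts over the group. Krt6a had 4358 and 3 counts, a ratio of 1440 (exact 95% interval 492 to 6990). This interval covers counting error only and not the spread between tumors. In the fit Krt6a was at -10.38 ± 2.98 (log2, SE, edgeR adjusted p = 0.16) and was not called. EdgeR called only Lgals7, with 25 members at an unadjusted p under 0.05 and 11 called by DESeq2. Lgals7 had a fall of 2.08 ± 0.390 (log2, edgeR adjusted p = 0.021), against 1.1% of all genes, and leaving out any of the 4 tumors gave 0 called members. Krt14 was at -9.78 ± 3.08 (edgeR adjusted p = 0.22) and Krt16 at -10.79 ± 2.34 (edgeR adjusted p = 0.053). All 10 interferon-stimulated genes had a lower fitted value in the same comparison, and 8 of them were called. The 10 summed to 381 and 377 CPM after 1 dose and to 72.7 and 55.9 CPM after 2. The 4 leukocyte genes had a median of -1.06 (log2), with none called. The part of both lists in the member levels was not tested. The reference for 1 dose was thus high in these genes and that for 2 doses near the floor.

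After 2 doses of exoCDN2, 2 members were called, against 11.3% of all genes, with 17 at an unadjusted p under 0.05 and 14 called by DESeq2. Dsp rose by 4.04 ± 1.08 (log2, SE, edgeR adjusted p = 0.023) and Lgals7 by 1.43 ± 0.384 (edgeR adjusted p = 0.024), with both tumors above both PBS tumors. The median member was at 5.26, and Krt10 was at 6.78 ± 2.30 (edgeR adjusted p = 0.061), with overlapping groups. Without exoCDN2 2 doses replicate 1, 0 members were called, and Krt10 was at -1.12. Without replicate 2, 15 were called. Without either PBS tumor 0 were called.

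After 2 doses of CDN2 (20 µg), 5 members were called, all higher, against 30.6% of all genes, with 10 at an unadjusted p under 0.05 and 11 called by DESeq2. Tgm1 rose by 6.48 ± 1.00 (log2, SE, edgeR adjusted p = 4e-04) and Lgals7 by 2.09 ± 0.392 (edgeR adjusted p = 0.0012). Sbsn rose by 2.80 ± 0.646 (edgeR adjusted p = 0.0041). Of the wound-induced genes, Krt16 rose by 9.03 ± 2.37 (edgeR adjusted p = 0.0082) and Sprr1a by 11.16 ± 3.04 (edgeR adjusted p = 0.011). Over both tumors of a group, Sprr1a had 254 counts against 0, at least 127-fold higher against a floor of 3 counts over the group. Of these counts, 218 were from CDN2 replicate 1 and 36 from replicate 2, and the bound does not cover the spread between tumors. Krt16 had 298 against 1, a ratio of 447 (79.6 to 17700, counting error only). Krt6a was at 6.83 ± 3.02 (edgeR adjusted p = 0.077). Against 4 pooled PBS tumors, Krt16 turned to -0.76 and Krt6a to -2.54, and both CDN2 tumors lay below both PBS tumors with 1 dose in Krt16. With CDN2 replicate 1 left out, 4 members were called and Krt6a was at -3.66, and with replicate 2 left out 10 were called. Without either PBS tumor 3 were called, and Krt16 and Sprr1a no longer passed.

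Other epidermal genes of a wider list gave 11 called higher and 1 called lower of 41 tested in this comparison, a share near the 30.6% of all genes. They were led by Asprv1, a protease of the granular layer, at 9.58 ± 1.63 (log2, edgeR adjusted p = 0.00067). Of 16 tested genes of epithelial alarm and repair, 12 were called higher, among them Il1a, an interleukin released by damaged keratinocytes, at 7.56 ± 0.814 (edgeR adjusted p = 5.2e-05). Il1a is also made by myeloid cells, and all 7 neutrophil genes were called higher in the same comparison. So were 6 of 10 skeletal muscle genes, 5 of 7 dermal fibroblast genes and 4 of 4 leukocyte genes, while 5 of 8 melanocyte lineage genes were called lower. The part of these tissues in the member levels was not tested.

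Set directly against CDN2 (20 µg) after 2 doses, exoCDN2 gave 2 called members, against 19.4% of all genes. Tgm1 was lower by a log2 change of -3.98 ± 0.857 (edgeR adjusted p = 0.0058), and Dsp was higher by 2.82 ± 1.04 (edgeR adjusted p = 0.050). Dsp no longer passed with RLE factors (adjusted p = 0.053, edgeR) or with the replicate block (adjusted p = 0.058, edgeR), under which Krt16 (adjusted p = 0.034) and Krt77 (adjusted p = 0.042) did. Krt10 was at 3.66 ± 1.92 (edgeR adjusted p = 0.15) and Krt16 at -3.50 ± 1.45 (edgeR adjusted p = 0.075). Leaving out CDN2 (20 µg) replicate 1 gave 0 called members, leaving out its replicate 2 gave 6, and leaving out exoCDN2 replicate 1 gave 3.

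**Figure D4:**
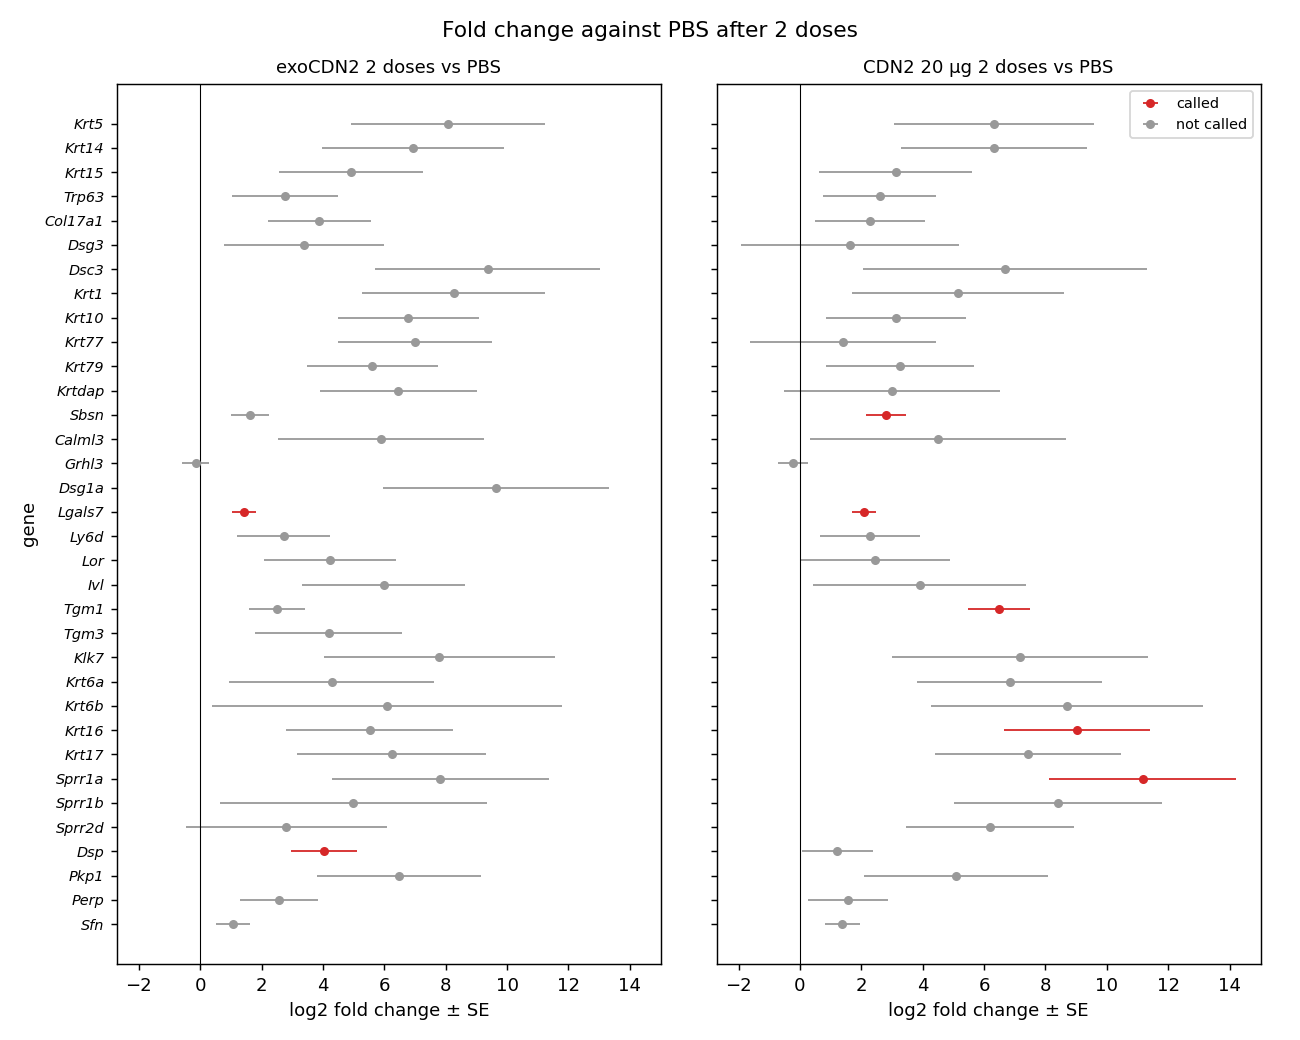
Log2 fold change (± SE) of the members against PBS after 2 doses, for exoCDN2 (left) and CDN2 (20 µg) (right), with called members in red. Genes at 0 counts in both groups are left out, and the widest error bars belong to genes near the floor in PBS.

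The change from the first to the second dose was also set against that of PBS. For CDN2 (20 µg), 11 of 34 members were called, against 16.8% of all genes, and these included all 7 wound-induced genes. For exoCDN2, 4 members were called, against 6.82%, namely Krt14, Krt16, Lgals7 and Dsp. Both contrasts use the fall between the PBS groups described above, so their positive values contain that fall. The value of Krt6b with CDN2, 14.04 (log2), contains 13.98 from PBS, while its mean with CDN2 was 1.10 CPM after 1 dose and 1.35 CPM after 2.

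The 2 tumors with 2 doses of CDN2 and no stated amount were set against PBS after 2 doses in a fit of all 18 tumors. EdgeR called 0 members, against 0.959% of 17110 genes, with 1 member at an unadjusted p under 0.05. Lgals7 was at 1.32 ± 0.462 (log2, edgeR adjusted p = 0.31).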

How the data were processed

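RNA of 18 whole B16F10 tumors was measured. Following the study's methods, the authors filtered reads on quality, aligned them to GRCm38 (mm10 in the submitters' processing notes) with OSA and estimated a count per gene with RSEM. The deposited values are expected counts without normalization, of which 8.75% to 12.7% per tumor were not whole numbers. They were rounded here.

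Groups were read from the sample labels. Genes were kept by filterByExpr (minimum count 10, minimum total 15), scaled by TMM and fitted with edgeR 4.0.16 (R 4.3.3) by the quasi-likelihood method, with 1 mean for each of 8 groups over 16 tumors. The Benjamini-Hochberg adjustment ran over 16927 genes. Calls needed an adjusted p below 0.05 together with a change of more than 2-fold, as in the study's own methods with DESeq2. SE is the log2 fold change divided by the square root of F. The pipeline was tested on simulated data. The paper describes 2 biological replicates per group for this sequencing. Nothing in the labels says whether the 2 tumors of a group came from separate mice. The p-values set a group difference against a spread between tumors estimated over all 8 groups, with information shared between genes. They do not use the spread of the 2 groups compared alone. An exact permutation test of 2 against 2 cannot go below p = 0.333 and was not used.

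The members and the gene lists were chosen with earlier results of these data known. All 35 members may be named. From other lists, at most 3 genes each way per comparison, with the smallest p among those called, may be named. Krt25, Krt27, Krt71 and Tchh (all 4 called of their list) and the inner root sheath sum were chosen after their values were seen. Lists not described in the text are the sebaceous gland genes, the adipocyte genes and 13 other Sprr genes. They summed to 85.4 to 135.6, 26.9 to 99.4 and 0 to 11.1 CPM. Among lists described only in part, the dermal fibroblast genes summed to 265.6 to 1857 CPM. The leukocyte genes summed to 42.6 to 517.9 CPM and the interferon-stimulated genes to 55.9 to 12250 CPM. Gene positions and exon lengths are from GENCODE M21 (GRCm38), and shared windows of 150 bases were counted in its transcripts. Promoters are from RefSeq. Alternatives were DESeq2 1.42.0, RLE factors, no filter, only the groups compared, all 18 tumors, a replicate block, no ratio limit, 4 pooled PBS tumors and each tumor left out.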

Additional observations from a re-analysis of the deposited data

Results flagged for a closer look

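Some results differed between the doses in the test of the change relative to PBS, which adds the fall between the PBS groups to each value. Of the value of Krt6b below, 13.98 is that fall, and of the value of Krt6a, 10.38. For CDN2 (20 µg), the second dose against the first, relative to PBS, gave log2 values of 11.77 for Krt6a, 14.04 for Krt6b, 13.57 for Krt16, 12.11 for Krt17, 13.38 for Sprr1a, 12.64 for Sprr1b and 10.45 for Sprr2d. The same contrast gave 7.62 for Tgm1, 4.56 for Sbsn, 3.13 for Lgals7 and 2.92 for Sfn. For exoCDN2 it gave 14.98 for Krt14, 12.08 for Krt16, 7.97 for Dsp and 3.42 for Lgals7. All were called by edgeR's test of the difference, and the fitted values depend on groups at or near 0 counts, so their size is no bound.

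The 2 tumors with 2 doses of CDN2 and no amount on the label were outside the main comparisons. In both, Lgals7 (lowest 4.30 CPM), Dsp (0.772 CPM) and Pkp1 (0.0856 CPM) were above both PBS tumors with 2 doses, and none was called (edgeR adjusted p = 0.31, 0.61 and 0.80). Pkp1 had 4 counts in each.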

How the results depend on the processing

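The numbers of members called depended on the fit. In the order unloaded EVs, exoCDN2, CDN2 (20 µg), CDN2 (100 µg) after 1 dose, exoCDN2 and CDN2 (20 µg) after 2 doses, exoCDN2 against CDN2 after 1 and 2 doses, and PBS 2 against 1 dose, no filter on low counts gave 12, 28, 29, 22, 32, 26, 11, 23 and 31 called members in place of 0, 1, 0, 0, 2, 5, 0, 2 and 1. DESeq2 gave 7, 1 and 2 for the 3 comparisons of exoCDN2, CDN2 (20 µg) and CDN2 (100 µg) with PBS after 1 dose, 14 and 11 for exoCDN2 and CDN2 after 2 doses, 1 for exoCDN2 against CDN2 after 1 dose and 11 for PBS. A fit of only the groups compared gave 27, 22 and 16 for the same 3 comparisons after 1 dose, 0 for exoCDN2 against CDN2 after 2 doses and 22 for PBS. All 18 tumors gave 3 for exoCDN2 after 1 dose, 1 after 2 doses and 3 for PBS, and RLE factors gave 1 for exoCDN2 against CDN2 after 2 doses. The cause was not tested.

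With 4 pooled PBS tumors, exoCDN2 gave 0 after 1 dose and 1 after 2, and CDN2 (20 µg) gave 2 after 2 doses. Pooling turned the log2 change of Lgals7 with unloaded EVs to 0.26, of Krt14 to -1.84 with exoCDN2 and -2.45 with CDN2 after 2 doses, and of Krt6a and Krt16 with CDN2 to -2.54 and -0.76. Leaving out 1 tumor gave 0 to 15 members for exoCDN2 after 2 doses, 3 to 10 for CDN2, 0 to 6 between them, and 0 for exoCDN2 after 1 dose and for PBS. The log2 change then ranged from -4.74 to 11.68 for Krt14 and -1.12 to 8.25 for Krt10 with exoCDN2 after 2 doses, and from -3.66 to 10.40 for Krt6a with CDN2. Between exoCDN2 and CDN2 after 2 doses it ranged from -11.04 to 3.99 for Krt14, -4.25 to 4.88 for Krt10 and -10.39 to 7.90 for Krt6a.

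Replicate numbers in the labels are shared between groups with nothing that ties same-numbered tumors together. The replicate block gave 4 members for exoCDN2, 2 for CDN2 (20 µg) and 2 for CDN2 (100 µg) after 1 dose, 8 for CDN2 after 2 doses, 4 for PBS, and 3 in place of 2 for exoCDN2 against CDN2 after 2 doses, where Dsp was lost and Krt16 and Krt77 were gained. Deviations of same-numbered tumors correlated between -0.14 and 0.32 across genes, highest for exoCDN2 against CDN2 after 2 doses. A block with crossed numbers, chosen after seeing the data, gave 5 for CDN2 after 2 doses.

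Depth limits genes at 3 counts or fewer. Of 56 within-tumor group ratios under another prior or with keratins only, 26 moved by more than the spread between replicates.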
